A study of Mus musculus with 2 samples.

Results

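The transcripts described here were those of the mouse mitochondrial chromosome. They were taken as all genes of the count table whose symbol in GENCODE release M21 begins with mt-, which gave 37 of 55421 genes. They comprised 13 protein genes, 2 rRNA genes and 22 tRNA genes, and all 37 lay on the mitochondrial chromosome, M, of build GRCm38. By annotated strand, 28 genes were on the plus strand (12 protein, 2 rRNA and 14 tRNA genes) and 9 on the minus strand (mt-Nd6 and 8 tRNA genes).

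The RNA came from E14 mouse embryonic stem cells of 129/Ola background with an Ago1 knockout. Ago1 encodes an Argonaute protein, which binds small RNAs. Cells were kept on gelatin in serum medium with LIF, per the labels, and polyadenylated RNA was sequenced after Trizol extraction and Illumina TruSeq library preparation, in a protocol the labels call reverse-stranded. The labels give a single group in duplicate, called KO1 and KO2 here, and do not say whether these are separate clones or cultures. Their spread may therefore be a technical one, which was not tested. No library of unmodified cells was analysed here, and no effect of the knockout can be read from these values.

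Mammalian mitochondrial DNA is transcribed from both strands as long RNAs that span many genes. Most protein and rRNA genes are flanked by tRNAs, and cutting out the tRNAs releases the mRNAs and rRNAs, after which most mRNAs and, with short tails, the rRNAs are polyadenylated. The protein genes encode core subunits of respiratory complexes I, III and IV and of the ATP synthase (complex V), while the rRNAs and tRNAs serve the mitochondrion's own ribosomes. Pieces of mitochondrial DNA have also been copied into the nuclear chromosomes during evolution, and some of these copies are nearly identical to their source.

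The libraries held 57048330 (KO1) and 54408708 (KO2) counts. A count of 0 therefore allows up to 3 counts, which is 0.0528 and 0.0549 counts per 1000000 (CPM) respectively, and all intervals and limits given here cover counting error only. Ago1 itself had 1497 counts (26.4 CPM) in KO1 and 452 counts (8.27 CPM) in KO2, a log2 ratio of -1.67 (95% interval -1.83 to -1.52). The position of the deleted part is not in the labels, so these counts over the whole gene do not check them. The interval of the Ago1 ratio lay wholly beyond 2-fold, as it did for 0.0768% of 15619 genes in this direction. After the GC correction described below the Ago1 ratio was -1.73. The cause of this difference was not tested. All 7 embryonic stem cell markers were detected, with a summed level of 4918 CPM in KO1 and 5207 CPM in KO2. Of 7 fibroblast feeder markers only Thy1 passed 1 CPM in both libraries, the summed level was 21.2 and 25.4 CPM, and Lum and Postn were at 0 counts.

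Several mitochondrial genes share sequence with annotated nuclear pseudogenes, and examples are printed because the levels are set beside this identity further on. Each is read from the GENCODE M21 transcripts, 5′ to 3′, and covers 60 bases. The first lines show the start of mt-Co2, which encodes a copper-binding subunit of cytochrome c oxidase (complex IV), and of its copy Gm28661 on chromosome 1, then the start of mt-Nd4, a complex I subunit, and of its copy Gm28439 in the same stretch of chromosome 1. No base differs in either pair.
mt-Co2: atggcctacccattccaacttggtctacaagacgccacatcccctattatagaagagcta
Gm28661: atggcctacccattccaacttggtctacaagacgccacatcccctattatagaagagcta
mt-Nd4: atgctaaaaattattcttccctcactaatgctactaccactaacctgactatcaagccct
Gm28439: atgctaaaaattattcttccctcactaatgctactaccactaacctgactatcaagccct

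The next lines show bases 1063 to 1122 of mt-Co1, the catalytic subunit of complex IV, with its copies on chromosomes 1 and 2. Capitals mark a base that differs from mt-Co1. Counted from the first base of mt-Co1, the differences were A1066T in Gm29216 and T1072C in Gm13340. The single difference in Gm29216 was the only mismatch over the 483 bases it shares with mt-Co1.
mt-Co1: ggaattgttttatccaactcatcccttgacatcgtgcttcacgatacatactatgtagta
Gm29216: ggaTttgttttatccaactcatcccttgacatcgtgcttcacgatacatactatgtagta
Gm13340: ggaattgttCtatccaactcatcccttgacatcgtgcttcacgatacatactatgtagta

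The mitochondrial genes held 1728457 counts in KO1, or 3.03% of that library (exact Clopper-Pearson 95% interval 3.025% to 3.034%), and 1360181 counts in KO2, or 2.50% (2.496% to 2.504%). The mean share was 2.76% ± 0.375 (SD, n = 2). The 2 libraries therefore differed by more than their counting error. In bulk RNA, fewer cells with a transcript and less of it per cell cannot be told apart. Protein genes took 96.0% of the mitochondrial counts in KO1 and 96.6% in KO2, rRNA genes 3.93% and 3.33%, and tRNA genes 0.0251% and 0.0212%. The 5 protein genes with most counts took 90.8% in each library.

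By strand, the 28 plus-strand genes held 99.9% of the mitochondrial counts in each library. The 9 minus-strand genes held 1996 counts in KO1 and 1550 in KO2, a share of 0.115% (interval 0.110% to 0.121%) and 0.114% (0.108% to 0.120%). Of the minus-strand counts, 1932 and 1510 were from mt-Nd6, and the 8 minus-strand tRNA genes together had 64 and 40. The strand split thus differed between the libraries by less than its counting error. The libraries were of polyadenylated RNA, so this is the split within that fraction and not of all transcripts of each strand.

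By respiratory complex, the 3 complex IV genes held 44.8% of the counts of mitochondrial protein genes in KO1 and 45.7% in KO2. The 7 complex I genes held 40.2% and 39.5%. The complex III gene, mt-Cytb, held 14.9% and 14.7%. The 2 ATP synthase genes, mt-Atp8 and mt-Atp6, held 0.0426% and 0.0417%, without the counts of the nuclear copy Gm10925, which would take mt-Atp6 from 562 to 1407 counts in KO1 and from 423 to 1061 in KO2. These are shares of counts and so depend on gene length as well as abundance, and nearly all complex IV counts were those of mt-Co1. They also depend on how reads that match a nuclear copy were treated, which the sources used here do not give. mt-Co2, mt-Co3 and mt-Atp6 have near-identical nuclear copies over almost their whole length, so their true share may be higher.

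**Figure D1:**
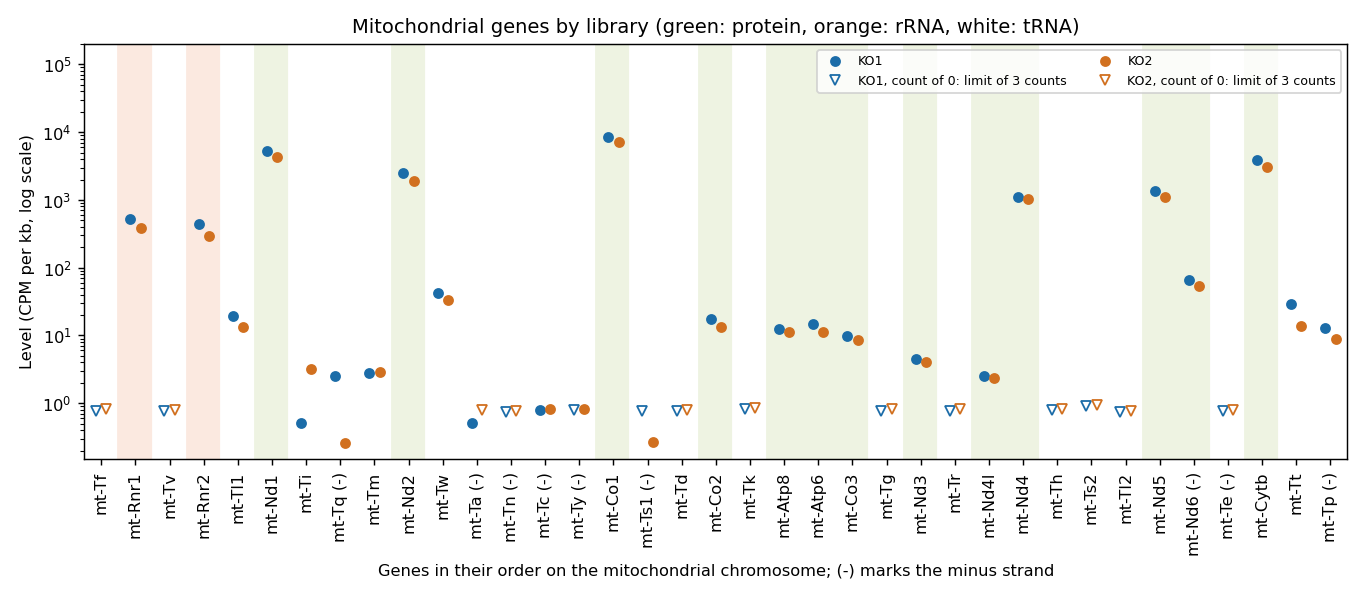
Level of each of the 37 mitochondrial genes in KO1 (blue) and KO2 (orange), in CPM per kb of gene length on a log scale, in their order along the chromosome; shading gives the class, (-) the minus strand, and an open triangle the level that 3 counts would give where the count was 0. mt-Nd1, mt-Nd2 and mt-Co1 on one side, and mt-Nd4, mt-Nd5 and mt-Cytb on the other, sit above 1000 CPM per kb around a stretch from mt-Co2 to mt-Nd4l in which none passes 17.2 CPM per kb, and most tRNA genes are at or near the limit.

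Levels of different genes were compared in CPM per kb of gene length. The highest was mt-Co1, on the plus strand at 5328 to 6872 (ENSMUSG00000064351), with 742699 counts in KO1 and 600163 in KO2. Per kb this was 8461 and 7110 CPM, a mean of 7786 ± 956 (SD, n = 2), and mt-Co1 alone made up 42.97% and 44.12% of all mitochondrial counts. Both libraries placed mt-Co1 above every other member.

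mt-Nd1, the complex I subunit encoded next to the rRNA genes (2751 to 3707), followed with 5332 CPM per kb in KO1 and 4276 in KO2. mt-Cytb, the cytochrome b of complex III and the last protein gene on the chromosome (14145 to 15288), had 3818 and 3094 CPM per kb. mt-Nd2, a complex I subunit (3914 to 4951), had 2520.5 and 1915 CPM per kb. No library of mt-Co1, mt-Nd1, mt-Cytb or mt-Nd2 overlapped with a library of its neighbour in this order, and mt-Co1 was 1.62-fold above mt-Nd1, 2.25-fold above mt-Cytb and 3.51-fold above mt-Nd2 in mean CPM per kb.

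mt-Nd5, a proton-pumping subunit of complex I (11742 to 13565), had 1349 CPM per kb in KO1 and 1097 in KO2. mt-Nd4, another pumping subunit (10167 to 11544), had 1113 and 1016 CPM per kb. Their ranges over the 2 libraries overlapped, but within each library mt-Nd5 was above mt-Nd4. mt-Nd4 shares its first 876 bases with Gm28439 without a mismatch. When its counts were divided by the 502 bases that have no such copy, mt-Nd4 came to 2921 ± 188 CPM per kb (SD, n = 2), above the 1223 ± 178 of mt-Nd5 and the 2218 ± 428 of mt-Nd2. This is an upper limit, since it takes every counted read to lie outside the copied bases. Dividing mt-Co1 likewise by the 1062 bases outside Gm29216 gave 11327 ± 1390 CPM per kb. For mt-Co1 this is not an upper limit, since the less similar copy Gm13340 also shares identical stretches with it.

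The rRNA genes lay below these 6 protein genes. mt-Rnr1, the small-subunit rRNA (70 to 1024), had 27992 counts in KO1 and 20135 in KO2, or 516 and 386 CPM per kb. mt-Rnr2, the large-subunit rRNA (1094 to 2675), had 39864 and 25213 counts, or 444 and 292 CPM per kb. The ranges of the 2 rRNAs over the libraries overlapped, but mt-Rnr1 was above mt-Rnr2 within each library (1.16-fold in KO1 and 1.32-fold in KO2). mt-Nd1, which is separated from mt-Rnr2 by only the tRNA gene mt-Tl1, had a mean level per kb 13.1-fold that of mt-Rnr2 (12.02-fold in KO1 and 14.66-fold in KO2). The libraries were of polyadenylated RNA, so these are levels in that fraction and not of total rRNA.

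mt-Nd6, a membrane subunit of complex I and the only protein gene on the minus strand (13552 to 14070), had 1932 counts in KO1 and 1510 in KO2, or 65.5 and 53.3 CPM per kb. Its level lay between the rRNAs and the low plus-strand genes, with no overlap on either side. mt-Nd5 overlaps its 3′ end by 14 bases on the opposite strand and was 20.6-fold higher per kb in each library. mt-Cytb, on its other side beyond the tRNA gene mt-Te, was 58.2-fold higher in the mean. The sources used here do not give the strand setting of the counting, so reads from the opposite strand cannot be told apart from its own. These are also levels in polyadenylated RNA, and how much of the mt-Nd6 RNA carries a poly(A) tail was not measured here.

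The other 6 protein genes, mt-Co2, mt-Atp8, mt-Atp6, mt-Co3, mt-Nd3 and mt-Nd4l, were the lowest, and they follow one another between mt-Co1 and mt-Nd4, apart from tRNA genes. mt-Co2 (7013 to 7696) had 669 counts in KO1 and 501 in KO2, or 17.2 and 13.4 CPM per kb. The same complex is built from mt-Co1, mt-Co2 and mt-Co3, and per kb mt-Co1 was 491-fold above mt-Co2 in KO1 and 530-fold in KO2. mt-Co3, the third of these subunits (8607 to 9390), had 436 and 361 counts, or 9.79 and 8.43 CPM per kb, and mt-Co1 was 855-fold above it in the mean. Each library thus placed the counts per kb of mt-Co2 and mt-Co3 far below those of mt-Co1. Unlike mt-Co1, these 2 genes have almost no sequence without an identical nuclear copy, as set out below, so their counted levels may be too low.

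Of the ATP synthase genes, mt-Atp6, which encodes the proton-channel subunit (7927 to 8607), had 562 counts in KO1 and 423 in KO2, or 14.5 and 11.4 CPM per kb. mt-Atp8, a small membrane subunit (7766 to 7969), had 145 and 125 counts, or 12.5 and 11.2 CPM per kb. The 2 genes overlap by 43 bases, and the sources used here do not say how reads in the overlap were assigned. Their ranges over the 2 libraries overlapped, as did those of mt-Co2 and mt-Atp6. Within each library mt-Co2 was above mt-Atp6, and mt-Atp6 above mt-Atp8. The last of these gaps was small, at 1.16-fold in KO1 and 1.01-fold in KO2. Both libraries of mt-Co2 lay above both of mt-Atp8.

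The last of the low genes were complex I subunits. mt-Nd3 (9459 to 9806) had 89 counts in KO1 and 78 in KO2, or 4.502 and 4.102 CPM per kb. mt-Nd4l (9877 to 10173), the lowest protein gene, had 42 and 38 counts, or 2.49 and 2.34 CPM per kb. mt-Nd4l overlaps mt-Nd4 by 7 bases, and the 2 are known to be carried on 1 mRNA in mammals, yet mt-Nd4 was 447-fold above mt-Nd4l per kb in KO1 and 434-fold in KO2. mt-Nd4l was also the only protein gene under 1 CPM in both libraries.

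These 6 genes lie in the stretch of the mitochondrial chromosome that is matched by annotated pseudogenes on chromosome 1. Alignment of the mitochondrial transcripts to all other GENCODE M21 transcripts, at 95% identity or more over at least 100 bases, found 11 nuclear pseudogenes, and all 11 had counts. Of these, 7 lay on the minus strand of chromosome 1 between 24611535 and 24616197 and matched positions 6390 to 11042 of the mitochondrial chromosome, a span of 4653 bases. The order was kept: the sum of the 2 positions was the same within 1 base for all 7. The stretch takes in the end of mt-Co1, the start of mt-Nd4 and, between them, 11 whole mitochondrial genes, of which 6 are protein and 5 are tRNA genes.

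Identity within the stretch was close to complete. Gm28661 matched bases 1 to 681 of the 684 of mt-Co2, Gm10925 bases 1 to 678 of mt-Atp6, Gm28437 bases 1 to 783 of mt-Co3, Gm10222 bases 1 to 294 of mt-Nd4l and Gm28439 bases 1 to 876 of mt-Nd4, each at 100% identity. Gm28438 matched bases 1 to 345 of mt-Nd3 with the single difference T3C, counted from the first base of mt-Nd3 and so in its first codon. mt-Atp8 lies inside the same stretch, but only the 43 bases at its end that it has in common with mt-Atp6 fall in an annotated pseudogene, Gm10925, which is under the minimum of 100 bases. The nuclear sequence between the annotated pseudogenes was not analysed here.

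Outside chromosome 1 the copies were less alike. Gm13340 on chromosome 2 (22588103 to 22589647) matched all 1545 bases of mt-Co1 at 97.6% identity with 37 mismatches, and its neighbour Gm13341 matched mt-Co2 at 95.9%. Gm13339, also on chromosome 2, matched bases 529 to 1038 of mt-Nd2 at 96.7%, and Gm4076 on chromosome 13 matched bases 706 to 1659 of mt-Nd5 at 95.2%. mt-Nd2 and mt-Nd5, which have only such diverged copies, were among the 6 genes with most counts per kb.

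Exact identity over the length of a read was examined as the share of a gene's windows with no identical window in another transcript. At 75 bases this share was 0.492% for mt-Co2, 0.494% for mt-Atp6, 0.141% for mt-Co3, 2.19% for mt-Nd3 and 1.35% for mt-Nd4l. It was 38.5% for mt-Nd4 and 60.2% for mt-Co1. It was 94.3% for mt-Nd2 and 98.3% for mt-Nd5, and 100% for mt-Rnr1, mt-Rnr2, mt-Nd1, mt-Atp8, mt-Nd6 and mt-Cytb. The 5 genes with almost no window of their own were thus all among the 6 lowest. mt-Atp8 was as low in level, and no window of it was shared with an annotated transcript. The chromosome 1 sequence between the annotated pseudogenes was not compared, so whether mt-Atp8 has an identical copy there was not tested. The sources used here do not give the read length, and windows of 50 and 100 bases picked out the same 5 genes.

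**Figure D2:**
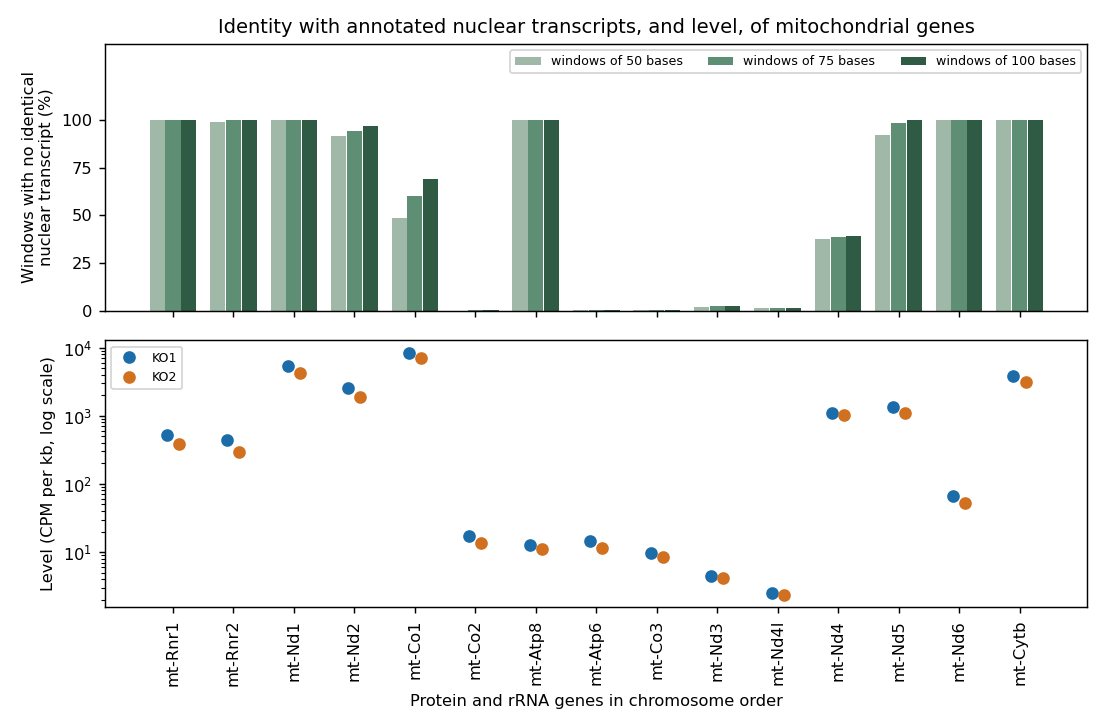
Upper panel: share of windows of 50, 75 or 100 bases of each protein and rRNA gene that have no identical window in another GENCODE M21 transcript, in percent. Lower panel: level of the same genes in KO1 and KO2, in CPM per kb on a log scale. The 5 genes under 3% in the upper panel lie at or below 17.2 CPM per kb in the lower one, together with mt-Atp8, which is at 100% in the upper panel.

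The counts assigned to the copies were small. All 11 held 5486 counts in KO1 and 4179 in KO2, or 0.00962% and 0.00768% of all counts. The 7 on chromosome 1 held 3147 and 2376 counts, while the 11 mitochondrial genes inside the stretch held 1943 and 1527. Gm10925 had 845 counts in KO1 and 638 in KO2, against 562 and 423 for mt-Atp6. Gm28661 had 730 and 475 against 669 and 501 for mt-Co2, and Gm28437 had 565 and 460 against 436 and 361 for mt-Co3. Each of these 3 nuclear copies thus had counts of the same order as its mitochondrial counterpart.

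The exceptions were the copies of genes only part of which has an exact copy. Gm28439 had 256 counts in KO1 and 198 in KO2, against 87113 and 76478 for mt-Nd4. Gm29216 had 587 and 479 against 742699 and 600163 for mt-Co1. The most counts of any copy, 1307 and 1019, were those of Gm13340, and Gm13341 had 931 and 724.

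Adding the counts of the copies to those of the mitochondrial gene left the 6 genes low. With them mt-Co2 came to 59.96 CPM per kb in KO1 and 45.49 in KO2, and mt-Co1, treated in the same way, was 148-fold above it in the mean. mt-Atp6 came to 32.4 ± 5.55, mt-Co3 to 20.8 ± 2.34, mt-Nd3 to 9.43 ± 0.834 and mt-Nd4l to 5.15 ± 0.840 CPM per kb (SD, n = 2), while mt-Atp8 stayed at 11.9 ± 0.916. The part played in these levels by reads that match several places, and by whether the counting discarded them, was not tested. The sources used here do not say how such reads were treated.

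The annotation leaves little sequence between the mitochondrial genes. Of 36 neighbouring pairs, 12 abut, 9 overlap, 14 are 1 to 6 bases apart, and 1 pair, mt-Tn and mt-Tc, is 32 bases apart. Some protein genes are annotated to end before their stop codon is complete: 10 of 13 end in TAA or TAG, and mt-Co3, mt-Nd4 and mt-Cytb end in a lone T, which polyadenylation is known to complete to a stop codon in such mitochondrial mRNAs. The last 30 bases of these 3, and of mt-Co1 and mt-Nd6 for comparison, are shown with the stop codon or its remaining base in capitals.
mt-Co3: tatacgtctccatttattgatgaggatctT
mt-Nd4: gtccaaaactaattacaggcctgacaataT
mt-Cytb: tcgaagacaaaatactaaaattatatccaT
mt-Co1: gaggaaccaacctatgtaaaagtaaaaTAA
mt-Nd6: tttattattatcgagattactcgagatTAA

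Genes with either form of end covered a wide range of levels. mt-Cytb, with a lone T, was at 3456 ± 512 CPM per kb, mt-Nd4, also with a lone T, at 1064 ± 68.5, and mt-Co3, the other such gene, at 9.11 ± 0.962 (SD, n = 2). Genes with a complete stop codon ran from mt-Nd4l at 2.42 ± 0.104 to mt-Co1 at 7786 ± 956.

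The 22 tRNA genes, 59 to 75 bases long, together had 433 counts in KO1 and 288 in KO2. At 11 of them the count was 0 in both libraries: mt-Tf, mt-Tv, mt-Tn, mt-Td, mt-Tk, mt-Tg, mt-Tr, mt-Th, mt-Ts2, mt-Tl2 and mt-Te. Another 7 had between 1 and 22 counts over both libraries. Of the 5 tRNA genes inside the stretch copied on chromosome 1, 4 had no count, and mt-Ts1 had 1 count in KO2. tRNAs are known to carry no poly(A) tail, and the libraries were of polyadenylated RNA.

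The 4 tRNA genes with at least 50 counts were mt-Tw, mt-Tt, mt-Tl1 and mt-Tp, and they are printed because they hold most tRNA counts. Capitals mark the bases that also belong to a neighbouring gene. mt-Tt abuts the end of mt-Cytb, mt-Tl1 lies between mt-Rnr2 and mt-Nd1 with no base between, and mt-Tp abuts mt-Tt on the other strand.
mt-Tw: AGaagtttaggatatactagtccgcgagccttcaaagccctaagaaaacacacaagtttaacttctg
mt-Tt: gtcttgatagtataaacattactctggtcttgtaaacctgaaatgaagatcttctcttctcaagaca
mt-Tl1: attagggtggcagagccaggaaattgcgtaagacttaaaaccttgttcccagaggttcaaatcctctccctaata
mt-Tp: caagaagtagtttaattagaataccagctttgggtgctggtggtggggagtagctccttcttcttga

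mt-Tw, the tryptophan tRNA (4950 to 5016), had 161 counts in KO1 and 120 in KO2, or 42.3 and 32.8 CPM per kb. It shares its first 2 bases with the end of mt-Nd2, which was 59.1-fold higher per kb in the mean. mt-Tt, the threonine tRNA (15289 to 15355), had 112 and 50 counts, or 29.4 and 13.7 CPM per kb. mt-Cytb, the gene before it, was 130-fold higher in KO1 and 227-fold in KO2. mt-Tl1, a leucine tRNA (2676 to 2750), had 83 and 55 counts, and mt-Tp, the proline tRNA on the minus strand (15356 to 15422), had 49 and 32. Only mt-Tw and mt-Tl1 passed 1 CPM in both libraries, and with 12 protein and 2 rRNA genes they made up the 16 members that did so.

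All mitochondrial genes together had 30424 CPM in KO1 and 24896 CPM in KO2, a log2 ratio of KO2 over KO1 of -0.29 (exact conditional binomial 95% interval of counting error -0.293 to -0.286). The 2 rRNAs had a ratio of -0.53 (-0.54 to -0.51) and the protein genes one of -0.28. Of the 19 members with 50 or more counts over both libraries, all 19 had a ratio below 0. A gene was called where its whole interval lay beyond 2-fold, and by this rule 0 of the 19 were called lower in KO2, where 0.0768% of all 15619 genes tested were, and 0 were called higher, where 0.98% were. The whole interval lay below 0 for 15 of the 19, against 31.2% of all genes. Intervals narrow as counts rise, and some members hold far more counts than most genes (mt-Co1 1342862 in sum). Such shares thus compare genes of unlike depth. The median log2 ratio of the 19 was -0.32, and that of all genes tested was 0.01. Ratios of this kind compare 2 libraries of 1 group, not conditions, and have no replicate check.

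Members differed among themselves. Among mt-Co1, mt-Nd1, mt-Nd2, mt-Nd4, mt-Nd5, mt-Cytb and the rRNAs, the members with most counts, the log2 ratio ran from -0.60 (interval -0.63 to -0.58) for mt-Rnr2 to -0.13 (-0.15 to -0.12) for mt-Nd4. mt-Rnr1 was at -0.42 (-0.45 to -0.39), mt-Nd2 at -0.40, mt-Nd1 at -0.32, mt-Nd5 and mt-Cytb at -0.30 and mt-Co1 at -0.25. mt-Nd6, on the minus strand, was at -0.30 (-0.40 to -0.20), and its interval held the values of mt-Nd5 and mt-Cytb on either side of it. For mt-Atp8, mt-Nd3, mt-Nd4l and mt-Tp the interval included 0. Among the 19 members with at least 50 counts the largest difference was that of mt-Tt, at -1.10 (-1.62 to -0.61), the only one called lower when the rule was relaxed to 1.5-fold, as were 0.205% of all genes.

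The libraries also differed by base composition. Across 15584 nuclear genes with at least 50 counts the log2 ratio was higher at higher GC content of the transcript, with a Spearman correlation of 0.811, given as a description since genes are not independent replicates. The 19 members had 31.9% to 44.8% GC, below the median of 49.6% over all genes tested. After correction of the ratio for GC content over all genes, the summed mitochondrial ratio was 0.09, and the median of the 19 was 0.08. The whole interval then lay below 0 for 2 members, mt-Rnr2 and mt-Tt, against 20.5% of all genes. It lay above 0 for 7, against 19.8%, again with genes of unlike depth compared. Beyond 2-fold, 0 of the 19 were called lower (0.103% of all genes) and 0 higher (0.167%). The direction of the mitochondrial difference thus turned with this correction.

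The 7 members above 0 after correction were mt-Nd1, mt-Nd2, mt-Co1, mt-Nd4, mt-Nd5, mt-Nd6 and mt-Cytb. mt-Nd4 was highest of these at 0.31 (0.29 to 0.32), and mt-Nd2 lowest at 0.04. The corrected intervals leave out the error of the GC fit, which also included the members. Values close to 0, such as that of mt-Nd2, are therefore not shown to differ from 0. mt-Rnr2 stood at -0.16 (-0.19 to -0.14) and mt-Tt at -0.64 (-1.16 to -0.16). mt-Rnr1 and mt-Rnr2 differ little in GC (35.8% and 35.4%), so the correction shifted both by nearly the same amount. It could therefore not change the gap between their ratios.

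**Figure D3:**
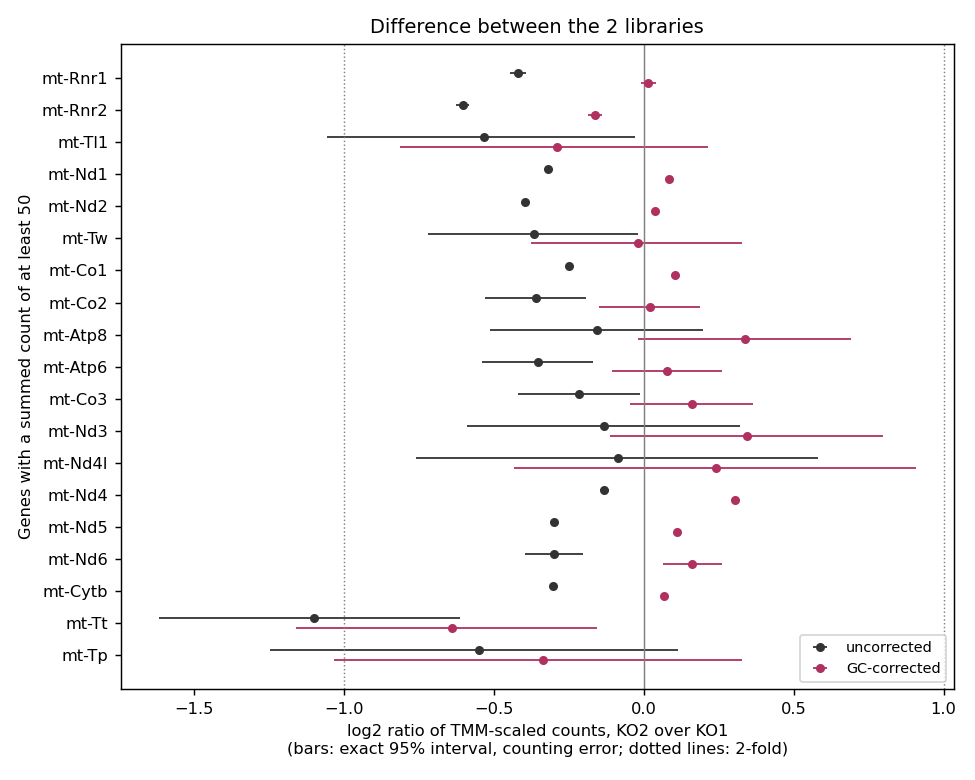
Ratio of KO2 to KO1 on the log2 scale, from TMM-scaled counts, for the 19 mitochondrial genes with 50 or more counts in sum, before (dark) and after (red) correction for transcript GC content; bars are exact 95% intervals of counting error, some shorter than the symbol, and dotted lines mark 2-fold. All 19 lie left of 0 before correction, and after it 7 lie wholly to the right and 2, mt-Rnr2 and mt-Tt, wholly to the left.

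The nuclear genes that transcribe, replicate and process the mitochondrial genome were examined as a list of 41. All 41 were detected at 1 CPM or more in both libraries, with means from 4.14 to 271 CPM and 1.65 to 48.3 CPM per kb. In mean level per kb every one was below mt-Nd6, the lowest mitochondrial protein gene outside the copied stretch. The length of a nuclear gene was taken as that of all its annotated exons over all transcripts. This can exceed the length of its mRNA and lower its level per kb, so the order against mt-Nd6 depends on the length used. In the ratio of KO2 over KO1, 0 were called lower and 1 higher, against the 0.0768% and 0.98% of all genes above. The median ratio was -0.18, and -0.05 after GC correction, in a list whose GC content ran from 39.6% to 60.5%.

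Of the 9 transcription genes, Polrmt, the mitochondrial RNA polymerase, had 20.6 CPM in KO1 and 47.4 CPM in KO2. It was the gene called, at a log2 ratio of 1.20 (1.10 to 1.30), and it also had the highest GC content of the list, 60.5%. After GC correction its ratio was 0.38 and it was not called. Tfam, which packages mitochondrial DNA and is needed to start transcription, had 85.8 and 70.6 CPM. The termination factor family members Mterf1a and Mterf1b were among the 3 genes of the list with the lowest mean CPM, at 8.54 ± 1.57 and 4.14 ± 1.07 CPM (SD, n = 2), and as paralogs they may share reads. For the other 8 transcription genes, which had 40.4% to 47.9% GC, the whole interval lay below 0, against 31.2% of all genes, and after GC correction their ratios ran from -0.19 to 0.035.

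Among the 6 genes of tRNA processing, Elac2, which cuts tRNA 3′ ends, had 101 CPM in KO1 and 121 in KO2. Trmt10c, a subunit of the mitochondrial RNase P that cuts the 5′ ends, had 80.5 and 63.2 CPM. Their log2 ratios were 0.25 and -0.35, with GC contents of 54.4% and 42.2%, and after GC correction the ratios were -0.07 and -0.05.

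The 17 genes of RNA stability, turnover and translation included the 3 of the list with most CPM. These were Ptcd3, a protein of the mitochondrial ribosome, at 271 ± 46.0 CPM, Lrpprc, which stabilises mitochondrial mRNAs, at 269 ± 24.1, and Grsf1, of the mitochondrial RNA granules, at 147 ± 18.5 (SD, n = 2). Slirp, the partner of Lrpprc, had 64.9 CPM in KO1 and 54.1 in KO2, and Mtpap, the mitochondrial poly(A) polymerase, had 59.72 and 50.005. Of the degradation enzymes, the exonuclease Pnpt1 had 143 and 102 CPM and the helicase Supv3l1 41.5 and 43.4. Among the 8 replication genes Polg2, the accessory subunit of the mitochondrial DNA polymerase, was lowest at 7.19 ± 0.385 CPM. No gene of these roles was called in either direction.

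**Figure D4:**
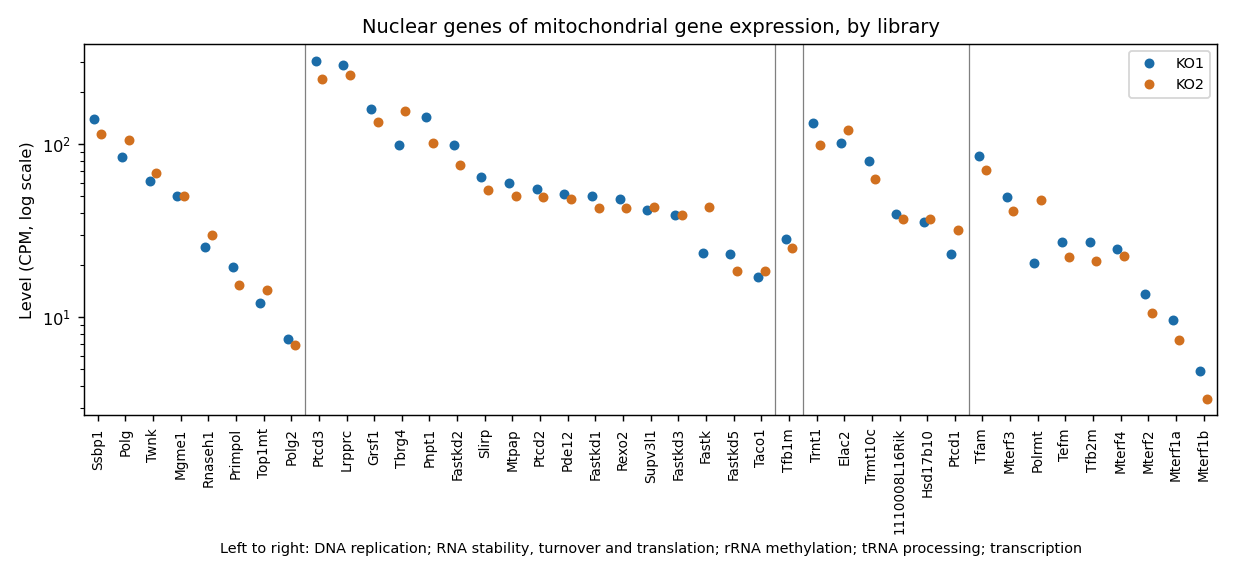
Level of the 41 nuclear genes of mitochondrial gene expression in KO1 (blue) and KO2 (orange), in CPM on a log scale, grouped by role and ordered by mean within a role. Most pairs lie close together, and the widest gap is that of Polrmt, at 20.6 CPM in KO1 and 47.4 CPM in KO2.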

How the data were processed

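Raw read counts per gene, not normalized, were deposited as a single table for 2 libraries of polyadenylated RNA, on build GRCm38 according to the submitters' processing notes. Not given in the sources used here: aligner, counting program, strand setting, read length, annotation release and the treatment of reads matching several places. Of 55421 genes, 55240 were found in GENCODE M21, the source of names, positions, lengths, GC content and sequences.

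TMM factors of 0.996 and 1.00 from edgeR 4.0.16 (R 4.3.3) scaled the counts to CPM. With 1 group no test between conditions was possible. Ratios used a prior count of 0.5 and exact conditional binomial 95% intervals. On simulated counts of 15619 genes, the 2-fold rule recovered 83.5% of 200 genes changed 3-fold and called 0 unchanged genes. The simulated libraries held counting error only, without a GC trend or other variance between replicates. They therefore do not give the rate of false calls in these data. GC correction was a loess of span 0.3. Copies were sought with BLAST 2.17.0 at an e-value of 1e-10, among transcripts because no genome sequence was used here; this, the identical windows and the adding of copy counts were chosen after seeing the data. Other steps used matplotlib 3.10.9, pandas 2.3.3, scipy 1.17.1 and numpy 2.4.6 under python 3.11.15.

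The genes and lists were chosen with earlier results of these data known. All mitochondrial genes could be named; of the machinery list, the 3 highest and 3 lowest in mean CPM, any called gene and a fixed set of well-known factors; of the nuclear copies, the 6 with most counts. Gm28438, Gm28439, Gm10222, Gm13339 and Gm4076 were named after their values were seen.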

Additional observations from a re-analysis of the deposited data

How the results depend on the processing

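With 1 group and 2 libraries, the data give no comparison between conditions. No pairing between conditions was possible because both libraries belong to the same group, while genes could be compared within each library. The summed log2 ratio of the mitochondrial genes was -0.28 without TMM factors and turned to 0.094 with GC correction. It was -0.35 with DESeq2 1.42.0 size factors, which were 1 for both libraries and so left their difference in total counts unscaled. No mitochondrial gene was called at 2-fold under any scaling or count minimum tried, and 1, mt-Tt, at 1.5-fold. The 1 machinery call, Polrmt, became 0 with GC correction. The number of members at 1 CPM or more ranged from 15 to 17, and from 16 to 17 with 1 library left out. The mitochondrial share ranged from 2.50% to 3.03% with 1 library left out, was 2.72% among protein-coding genes alone and 2.77% with the copies added. Genes with at least 80% of their bases in a nuclear copy numbered 6 at 95% identity, 5 at 99% and 8 at 90%. Levels per kb were recomputed for the 15 protein and rRNA genes. Without the copied bases, those of mt-Co1 and mt-Nd4 moved by more than the spread between libraries. In that setting mt-Co2, mt-Atp6, mt-Co3, mt-Nd3 and mt-Nd4l had no value, since at most 3 of their bases were left. By the same measure mt-Atp8 moved (to 15.0 CPM per kb) without the overlapped bases, as did 5 genes with the copies' counts added. At 18 of 22 tRNA genes fewer than 50 counts were too few for the ratio rule.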
